A study of Canis lupus familiaris and Eptesicus fuscus and Equus caballus with 6 samples.

Results

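ERVL elements are an old group of endogenous retroviruses, and 116 of the 1107 repeat models listed for dog or horse testis were filed under exactly LTR/ERVL. They were chosen by that class name alone, and no measured value entered the choice. The ERVL-MaLR relatives and 3 models filed as LTR/ERVL? in each file stayed outside. The dog file held 102 of them among 955 models and the horse file 114 among 986. In both files 100 were listed, with the same model length, while 2 were listed for dog only and 14 for horse only. A model listed for 1 species was not measured in the other. The mRNA libraries came from snap-frozen testes of an adult dog (Canis lupus familiaris) and an adult horse (Equus caballus), with no treatment or strain given in the labels. The series holds 6 libraries in all, and small RNA and bat libraries were not used here. Each species had 1 mRNA library, so no difference below has a replicate check and no test of the species could be made. The files list repeat families and no testis genes, so the tissue label could not be checked against cell markers. In a bulk library, fewer cells of a type and less RNA per cell cannot be told apart.

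ERVL elements carry gag and pol genes and lack an envelope gene in most families, and their reverse transcriptase is primed by a leucine tRNA, which gives the group its L. A full copy has an internal part with the genes, flanked by a pair of long terminal repeats (LTRs) that hold the promoter and the polyadenylation signal. Recombination between the LTRs removes the internal part, so solitary LTRs are the common remnant in mammalian genomes. In mice and humans, ERVL LTRs are known as promoters of genes switched on in the early embryo. In the germ line, piRNAs and DNA methylation act against transposable elements. Repeat libraries keep internal parts and LTRs as separate models, and a read that matches several related models is divided among them by RSEM, the program that made these values. The consensus sequences of the models were not used here, so no sequence is shown.

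ERVL models took a small part of the element reads in both testes, and a larger part in horse than in dog. Levels below are in TPM, a read count per length of model, scaled to the same total in each library. Reads are rebuilt from TPM and model length. ERVL models held 231 of the 103795 dog reads on transposable element models, a share of 0.223% (exact 95% interval 0.195 to 0.253%). They held 1485 of the 174903 such horse reads, a share of 0.849% (0.807 to 0.893%). The share in horse was 3.81 times that in dog (3.32 to 4.40, counting error only). Over the shared models alone the shares were 0.172% (0.148 to 0.1996%) and 0.473% (0.442 to 0.507%). Among LTR element reads, ERVL models took 5.64% in dog and 8.31% in horse, far behind ERV1 with 88.8% and 71.4%. In horse, ERVK models took 13.1%, also more than ERVL. None were listed for dog, so the LTR totals of the species cover different classes. The MaLR models, whose LTRs are related, held 0.220% of the element reads in dog and 0.729% in horse. Ribosomal RNA took 84.4% of all reads on models in dog and 72.1% in horse.

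Fewer ERVL models had a read in dog than in horse. In dog 34 of 102 had at least 1 read and 6 had at least 10, with the reads rounded to whole numbers. In horse 69 of 114 had a read and 31 had at least 10. The median TPM over all ERVL models was 0 in dog and 5.67 in horse. Over all element models 40.7% had a read in dog and 60.8% in horse, against 33.3% and 60.5% of the ERVL models. For a model of the median shared length, 576.5 nt, the 3 reads that a count of 0 allows correspond to 12.6 TPM in dog and 14.2 TPM in horse, and this floor covers counting error only. No read was found for 43 members in any file that lists them, and 29 others had at most 3. Most of these models cannot be ranked at this depth.

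ERVL-B4, an internal model, had the most ERVL reads in both testes, while the models after it differed, as the plot of levels shows. In dog it had 44.0 reads at 17.96 TPM, where the authors' interval ran from 13.0 to 23.9 TPM. It was followed by CarERVR1 with 42.0 reads at 17.94 TPM and by ERVL with 20.8 reads at 8.43 TPM. These 3 long models held 46.2% of the dog ERVL reads. The read intervals of ERVL-B4 (32.0 to 59.1) and CarERVR1 (30.3 to 56.8) overlapped, so first place in dog was not resolved. In horse ERVL-B4 had 190 reads at 87.5 TPM (74.4 to 99.7 TPM), and the next 3 places went to LTR models listed for horse only. Its read interval (164 to 219) overlapped that of LTR21B1_EC, the next model (129 to 178). The top 10 models held 74.9% of the ERVL reads in dog and 62.4% in horse. By TPM, which counts per length, the order differed. MLT2D led in dog at 62.2 TPM (30.9 to 107 TPM), with CarERVR1_LTR next at 56.5 TPM and an interval that overlapped, and LTR21B1_EC led in horse at 508 TPM (427 to 591 TPM).

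**Figure D1:**
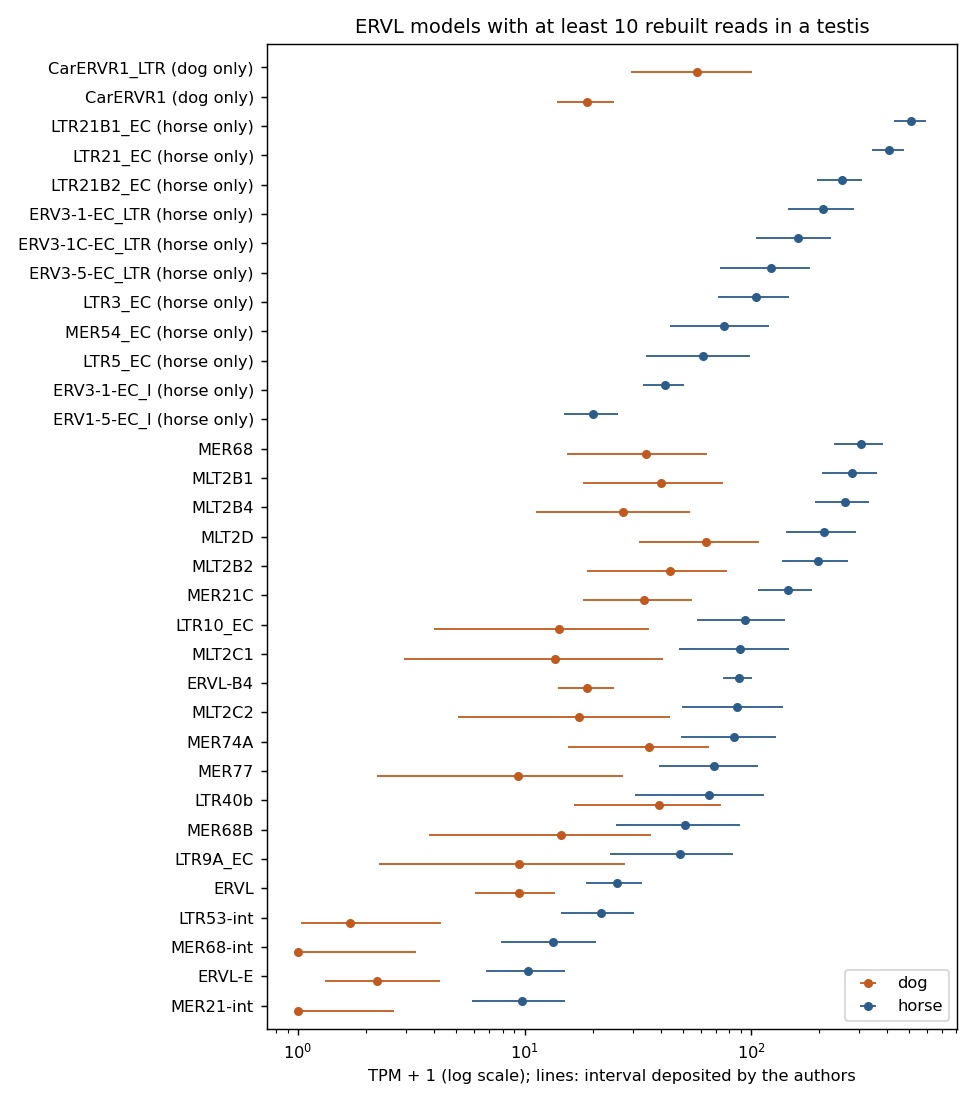
TPM plus 1 on a log scale for the ERVL models with at least 10 rebuilt reads in dog or horse, in orange for dog and blue for horse, with lines for the authors' deposited intervals. MER68 stood at 33.5 TPM in dog and 303 TPM in horse, and the 2 lines of LTR40b overlap.

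Models listed for 1 species held part of the ERVL signal, but by TPM a smaller part than for elements in general. The 14 horse-only models, all with EC in their names as Equus caballus models have, held 657 reads, which was 44.2% of the horse ERVL reads (41.7 to 46.8%). Of the 14, 13 had a read and 11 had at least 10. The 3 LTR21 models were the most read of them. LTR21B1_EC had 152 reads at 508 TPM, LTR21_EC had 145 reads at 407 TPM (340 to 473 TPM) and LTR21B2_EC had 85.3 reads at 251 TPM (195 to 307 TPM). The intervals of LTR21B1_EC and LTR21_EC overlapped, and LTR21B2_EC lay below both. Together they held 25.7% of the horse ERVL reads (23.5 to 28.03%). Without these 3 the ERVL share of horse element reads was 0.630%, still 2.83 times the dog share.

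The other horse-only models were read less. The internal model ERV3-1-EC_I had 82.0 reads at 40.9 TPM, and its LTR had 34.2 reads at 207 TPM. Related LTRs followed, ERV3-1C-EC_LTR with 26.0 reads at 160 TPM, ERV3-5-EC_LTR with 19.0 at 121 TPM and ERV3-1B-EC_LTR with 6.45 at 37.0 TPM. LTR3_EC had 28.7 reads at 104 TPM. MER54_EC had 15.0 reads at 75.02 TPM, whereas the shared MER54A and MER54B had no read in either testis. LTR5_EC had 14.0 reads at 60.6 TPM. ERV1-5-EC_I, filed under ERVL although its name begins with ERV1, had 46.1 reads at 19.1 TPM, and its LTR had 3.01 reads. LTR74_EC had none. The median over horse-only LTR models was 112 TPM, against 3.78 TPM over the shared LTR models in the same library.

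In dog, only 2 models were listed for that species alone, and both belong to CarERVR1. The long model, of 5465 nt, had 42.0 reads at 17.94 TPM (12.9 to 23.8 TPM), and CarERVR1_LTR, of 434 nt, had 9.97 reads at 56.5 TPM (28.5 to 99.8 TPM). Together they held 22.5% of the dog ERVL reads (17.3 to 28.4%). The shared models held the other 77.5% in dog and 55.8% in horse. By TPM the shared models held 87.1% of the ERVL total in dog and 56.1% in horse. Over all elements, the 577 named alike held 9315 of 458270 TPM in dog and 54185 of 494541 TPM in horse. Models listed for 1 species thus held a larger part of elements in general than of ERVL in both testes.

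**Figure D2:**
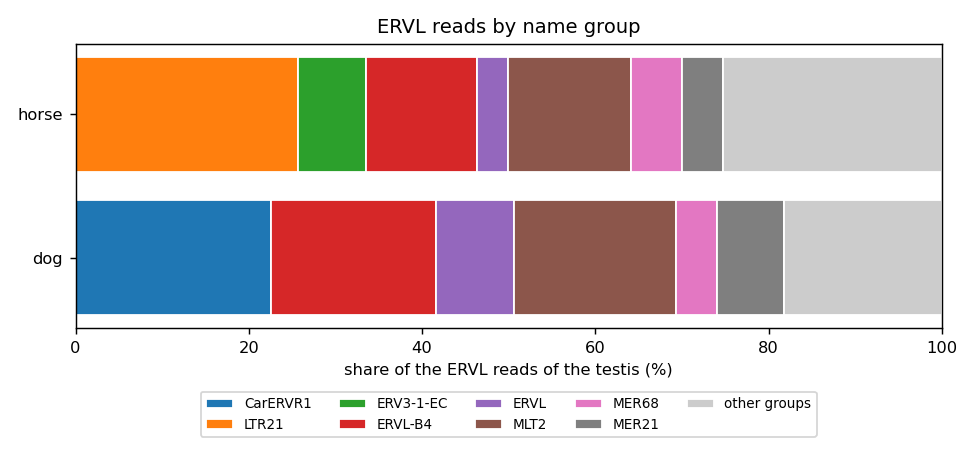
Share of the ERVL reads of each testis, in percent, taken by 8 name groups and by all other groups together. CarERVR1 takes 22.5% in dog, LTR21 takes 25.7% in horse, and MLT2 and ERVL-B4 are present in both.

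Shared ERVL models were mostly at a higher level in horse, as were shared elements of other classes. Of the 100 shared models 58 had a read in either species, 32 in dog and 56 in horse. On the log2(TPM + 1) scale 46 of the 58 (79.3%) were at least 2-fold higher in horse, against a background of 87.6% of the 307 elements named alike with a read. At least 2-fold higher in dog were 2 models, 3.45%, against 3.26% of all. The median log2 ratio was 2.40 for ERVL models and 2.60 for all elements. The summed TPM of the shared ERVL models was 501 in dog and 2568 in horse, 5.12 times as much. The authors' TPM intervals lay apart, with horse higher, for 18 of 58 models (31.03%), against 46.3% of all elements, and for none with dog higher, against 0.651%. The share of ERVL models higher in horse lay below that of elements in general by each of these counts, so nothing particular to ERVL is read from it. Among models with at least 10 reads in either species the shares were nearly level, 19 of 20 for ERVL (95%) and 94% for all elements.

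Reads behind these counts were few. By TPM alone 56 of 58 were higher in horse, against 94.8% of all elements. These 56 include 6 with the same rounded number of reads in both species, since equal reads give a TPM ratio of 1.13. Of the 46 at least 2-fold higher, 18 rested on at most 3 horse reads, 8 of which rested on a single read with none in dog. As shares of element reads, which remove the larger element total in horse, 38 of the 58 were at least 2-fold higher in horse (65.5%, against 74.3% of all elements), and 49 were higher at all (84.5%, against 90.2%). By TPM, as given above, these totals lie mostly on models listed for 1 species. A share is thus taken of a different set of models in each species. The summed reads of the shared models were 2.74 times higher in horse by share (2.33 to 3.24), against 2.98 for all shared elements. The same ratio was 3.32 for MaLR, 2.81 for ERV1 and 3.37 for L1. Among DNA transposons it was 1.07 for hAT, nearly level, and 5.07 for Tigger.

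**Figure D3:**
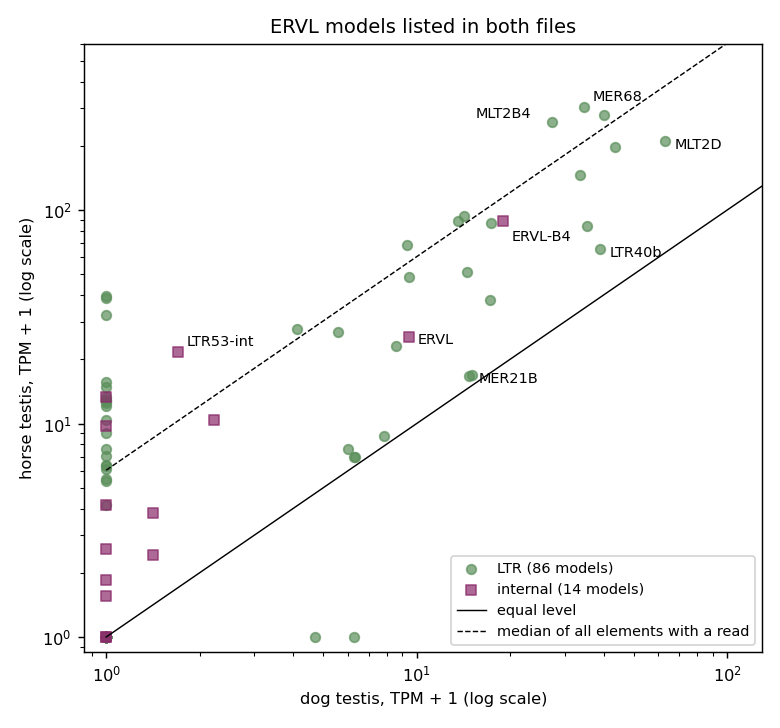
Each point is 1 of the 100 shared ERVL models, with TPM plus 1 in dog across and in horse up, both on log scales; circles are LTR models and squares internal models. Most points with a read lie above the solid line of equal level, around the dashed line of the median over all elements, and 42 models lie at 0 in both.

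Levels of the 30 shared models with a read in both testes followed a similar order. Spearman's rho of TPM was 0.810 and Pearson's r of log2 TPM was 0.824 across these models. Model length, the same in both species, enters TPM and raises both values by construction. In dog, 1 read gave 0.42 TPM on HERVL40, of 5530 nt, and 5.30 TPM on LTR16B2, of 462 nt. How much of the agreement length accounts for was not tested. They are models of the same 2 libraries, partly alike in sequence, and not independent replicates.

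Internal models carry the retroviral genes, and 4 shared members had at least 10 reads in both species, 2 internal models and 2 LTRs. ERVL-B4 was at 17.96 TPM in dog and 87.5 TPM in horse, 4.87-fold higher in horse (3.49 to 6.91) and 2.57-fold as a share of element reads. ERVL was at 8.43 TPM in dog and 24.6 TPM in horse, 2.91-fold higher in horse (1.72 to 5.05) and 1.54-fold by share. The LTR MER21C was at 32.7 TPM and 144 TPM, 4.42-fold higher in horse (2.32 to 8.69). The LTR MLT2D was at 62.2 TPM and 209 TPM, 3.36-fold higher in horse (1.67 to 7.98). Horse was higher in all 4 by TPM, against 95.3% of the 64 elements with as many reads, and the median ratio was 3.89 for the 4 and 5.09 for the 64. As a share of element reads, the intervals of ERVL (0.907 to 2.66) and MLT2D (0.879 to 4.21) included equality.

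Most other internal models had few or no dog reads. LTR53-int had 1 read in dog at 0.70 TPM and 26.1 in horse at 20.7 TPM, a ratio of 29.5 with a counting interval from 4.81 to 1201. ERVL-E had 2.99 reads in dog at 1.23 TPM and 20.3 in horse at 9.39 TPM, 7.63-fold higher in horse (2.23 to 39.5). MER68-int had no dog read and 14.0 horse reads at 12.4 TPM, which was at least 5.26-fold higher in horse against a floor of 3 dog reads, and at least 2.77-fold by share. Such a bound fixes the dog value and leaves out the counting error of the horse reads, with which the exact interval of this ratio begins at 3.74, or 1.97 by share. MER21-int also had no dog read, and with 14.0 horse reads at 8.78 TPM was at least 5.25-fold higher against the floor, with the same start of the interval. ERV3-16A3_I, again without a dog read, had 6.24 horse reads at 3.14 TPM, at least 2.34-fold higher against that floor, but its exact interval begins at 1.33, or 0.699 by share, which includes equality, and the deposited intervals overlap. HERVL74 went from 1.02 dog reads to 6.06 horse reads, and HERVL40 from 0.996 to 3.01, with intervals of the ratio from 0.820 to 311 and from 0.271 to 177. HERV16, MER76-int and LTR52-int, all without a dog read, had 3, 2 and 0.756 horse reads. HERVL32 and MER70-int had no read in either testis. Over the 14 shared internal models the reads were 2.85 times higher in horse by share (2.20 to 3.72), and over the 86 shared LTR models 2.67 times (2.17 to 3.33), so the intervals of both kinds overlapped.

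**Figure D4:**
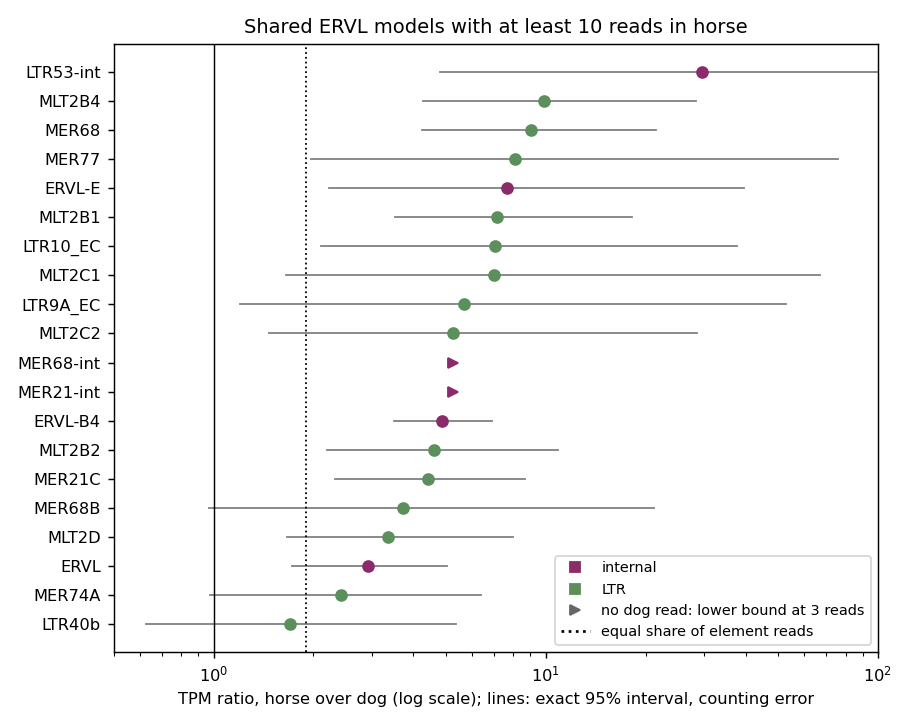
TPM ratio of horse over dog on a log scale for the 20 shared ERVL models with at least 10 reads in horse, with exact 95% intervals for counting error; triangles are lower bounds for models without a dog read, and lines past the axis end are cut there. All 20 ratios lie above 1, and the lines of LTR40b, MER74A and MER68B cross 1; LTR40b alone lies left of the dotted line of equal share of element reads.

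MLT2 LTRs, the LTRs that flank the mammalian ERVL internal parts, were the best counted shared LTR group. Of the 10 MLT2 models 7 had a read in each testis, with 43.4 reads in all in dog and 210 in horse. MLT2B1 was at 39.2 TPM in dog and 279 TPM in horse, 7.11-fold higher in horse (3.53 to 18.2). MLT2B4 was at 26.2 TPM and 259 TPM, 9.89-fold higher (4.28 to 28.3). MLT2B2 was at 42.7 TPM and 197 TPM, 4.62-fold higher (2.20 to 10.9). The 3 ratios have overlapping intervals. MLT2C2 stood at 16.4 TPM and 86.1 TPM, MLT2C1 at 12.6 TPM and 88.2 TPM, and MLT2F at 16.3 TPM and 36.8 TPM. The horse level exceeded the dog level in all 7 by TPM, though the interval of the MLT2F ratio (0.707 to 11.3) included equality. By share the intervals of MLT2C1, MLT2C2, MLT2D and MLT2F included equality, and those of MLT2B1, MLT2B2 and MLT2B4 lay above it. MLT2B3, MLT2B5 and MLT2E had no read in either testis. Over the 10 models the reads were 2.87 times higher in horse by share (2.08 to 4.12).

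MER68 was the most read shared LTR model of horse, at 33.5 TPM from 7.78 dog reads and at 303 TPM from 62.5 horse reads, 9.05-fold higher in horse (4.24 to 21.4). MER68B was at 13.5 TPM and 50.3 TPM, with an interval of the ratio from 0.967 to 21.2. MER68C had 1 read in horse alone. In the MER21 group, MER21B had nearly the same reads in both testes, 5 in dog at 13.8 TPM and 5.08 in horse at 15.8 TPM. LTR53 likewise had 3 reads in each testis, at 14.1 TPM and 15.9 TPM. In the MER74 group, MER74A was at 34.3 TPM and 83.1 TPM (interval of the ratio 0.979 to 6.41), MER74B at 7.60 TPM and 22.0 TPM, and MER74C had 1 read in each testis.

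LTR40 models included the exceptions to the order. LTR40b was at 38.1 TPM in dog, from 7.18 reads, and at 64.5 TPM in horse, from 10.8 reads, a ratio of 1.69 (0.627 to 5.39) by TPM but 0.893 by share. LTR40c had 1 read in dog and none in horse, and LTR16D likewise, and these were the only shared members higher in dog by TPM. LTR40a, without a dog read, had 7.27 horse reads at 38.4 TPM, at least 2.73-fold higher against the floor of 3 dog reads, but its exact interval begins at 1.62, or 0.855 by share, which includes equality, and the deposited intervals overlap. Also without a dog read were LTR9B_EC, with 9.08 horse reads at 37.8 TPM and at least 3.41-fold higher (exact interval from 2.22), and MER76, with 8 horse reads at 31.4 TPM and at least 3.004-fold higher (from 1.92). MER77 was at 8.34 TPM in dog, from 2.08 reads, and at 67.65 TPM in horse, from 15.0 reads, 8.11-fold higher (1.96 to 76.1).

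Further name groups were near or at the limit of counting. LTR16 was the largest name group, with 13 models, of which 3 had 1 read each in dog and 7 had 1 or 2 in horse. None of the 5 LTR33 models had a read in either testis. Among the 5 LTR86 and 5 LTR108 models, LTR86A1 and LTR108a_Mam had 1 horse read each. Of the 8 models with Mam in their names, for mammals, none had a read in dog and 2 had 1 read in horse. The shared EC-named models LTR10_EC, LTR9A_EC and LTR9B_EC had 5.03 reads in all in dog, LTR10_EC 3.03 at 13.2 TPM and LTR9A_EC 2 at 8.43 TPM. In horse LTR10_EC had 18.9 reads at 93.2 TPM and LTR9A_EC 10.1 reads at 47.7 TPM. The 17 EC-named models held 46.8% of the horse ERVL reads.

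LTR models had a higher mean level per length than internal models in both testes. The medians were tied in dog, and in horse their order depended on the models counted. Internal models held more reads each. Names sorted 16 members as internal, of 2990 to 6349 nt, and 99 as LTR, of 199 to 956 nt, and CarERVR1 was of neither kind by name. In dog the mean was 6.08 TPM over 87 LTR models and 2.08 TPM over 14 internal models, a ratio of 2.92. With CarERVR1, whose length of 5465 nt is that of the internal models, counted among them, the internal mean in dog was 3.14 TPM and the ratio 1.94. In horse the mean was 44.4 TPM over 98 LTR models and 14.6 TPM over 16 internal models, a ratio of 3.04. The median was 5.67 TPM for LTR and 5.96 TPM for internal models in horse, and 0 for both kinds in dog. Over the shared models alone the horse medians were 3.78 TPM for LTR and 2.97 TPM for internal models. A read was found for 55 of the 98 LTR and 14 of the 16 internal models in horse. In dog this held for 27 of 87 and 6 of 14. In reads per model the order turned, with 1.36 for LTR and 5.06 for internal models in dog and 10.4 and 29.2 in horse. Per kb of shared model the LTRs had 2.25 reads and the internal models 1.06 in dog, and 10.1 and 5.07 in horse. The internal part of the ERVL reads was 30.7% for dog (24.9 to 37.1%) and 31.5% for horse (29.2 to 33.9%). Counting CarERVR1 as internal brought the dog part to 48.9% (42.3 to 55.6%), above that of horse.

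Where an internal model and LTRs share a name, the LTR had the higher value in most pairs with a read, and no LTR lay below its internal model beyond counting error. In horse 9 internal models face 14 LTR models by name, of which 8 were higher than their internal model, 5 lower, and 1 pair was at 0 on both sides. In dog, CarERVR1 included, 8 face 13, of which 7 were higher, 1 lower and 5 at 0 on both sides. The interval of the ratio included equality for all 5 lower LTRs in horse and for the 1 in dog. It also did for some of the higher ones, such as MER21B in horse (0.497 to 5.18). MER68 in horse was 24.6 times the level of MER68-int (13.7 to 47.9), and MER21C 16.4 times that of MER21-int (8.86 to 31.9). ERV3-1-EC_LTR was 5.07 times the level of its internal model (3.27 to 7.60), and CarERVR1_LTR in dog 3.15 times that of CarERVR1 (1.41 to 6.40). The opposite order was seen for LTR53 in horse, at 0.767 times the level of LTR53-int, where the interval from 0.149 to 2.51 includes equality. For ERV1-5-EC the ratio of LTR to internal model was 1.17 (0.232 to 3.62), from 3.01 LTR reads, so no difference was resolved. Among models that share only a number, MER74A stood at 29.7 times the level of HERVL74 in horse (11.3 to 93.0) and LTR40b at 45.1 times that of HERVL40 (12.2 to 257). MER74B and LTR40a in horse were also higher, with intervals above equality. Others were not resolved there, such as MER74C at 2.14 times (0.047 to 17.8) and LTR40c without a read (0 to 30.2). Several LTR16 models had no horse read, below HERV16, and the interval of every LTR16 ratio to HERV16 in horse included equality.

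**Figure D5:**
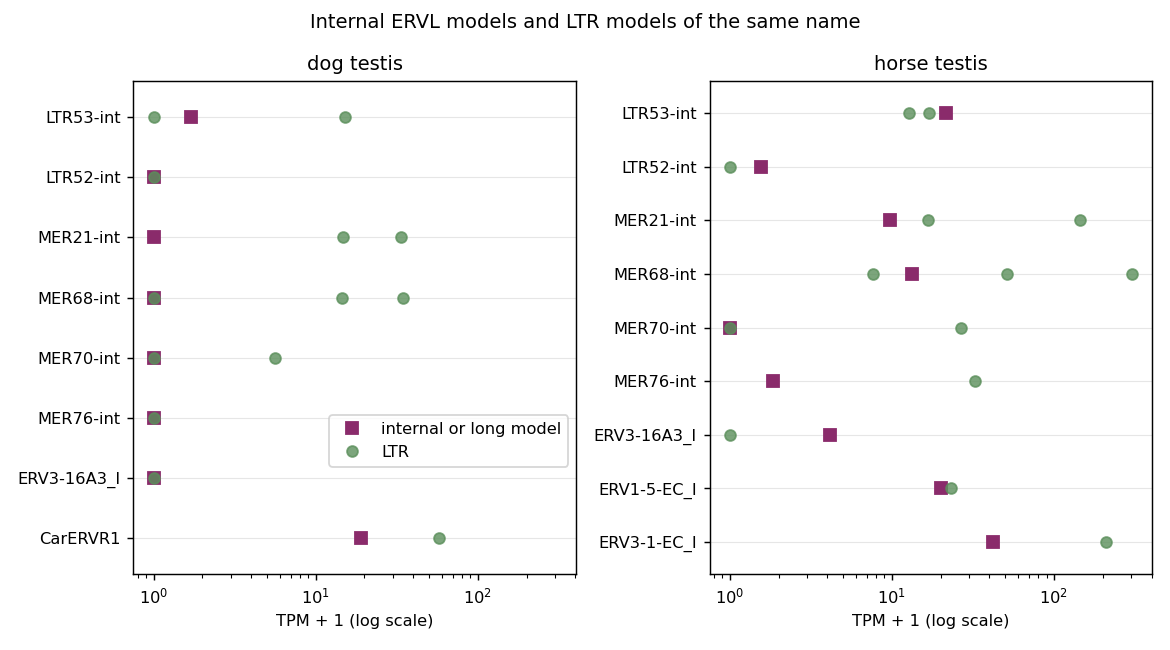
TPM plus 1 on a log scale for internal models (squares, CarERVR1 included) and the LTR models that share their name (circles), with dog on the left and horse on the right; a level of 0 lies at 1. Circles lie right of the square for MER68-int and MER21-int in both testes, with 1 MER68 LTR at 0 in dog and below the internal model in horse, and left of it for LTR53-int in horse.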

How the data were processed

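Levels were TPM values per repeat model and interval bounds on the same signal scale, both as the authors deposited them and as the file headers name them. TPM sums to the same total in each file. The submitters' processing notes name Bowtie, RSEM and CanFam3.1, the last for horse too. The sources used here do not state the aligner settings, the repeat library or the level of the deposited interval. To rebuild reads, TPM was multiplied by model length less 24 nt and divided by its most frequent low value, which stands for 1 read. The offset was 24.0 nt over 151 models of the bat file with an expected count, deposited by the authors, of at least 50. Of low models (under 20.5 reads), 53.7% in dog and 51.4% in horse lay within 0.05 of a whole number, so the reads are approximate. Elements are LINE, SINE, LTR, DNA and RC classes. Ratios carry exact 95% intervals of the split of reads, shares exact binomial ones. Without molecular identifiers these cover counting error only. With 1 library per species no test was run. Named models were the 10 most read per species, those with at least 10 reads in both, those higher in dog, the 5 most read without a read in the other species, up to 10 per file listed once, and internal models with a read; further models were named after their values were seen. Members and lists were chosen with earlier results of these data known. Python 3.11.15, pandas 2.3.3, numpy 2.4.6 and scipy 1.17.1 were used. The rebuilding was run on simulated whole reads with the same 24 nt offset, so neither the offset nor reads divided among models were tested.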

Additional observations from a re-analysis of the deposited data

How the results depend on the processing

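Counts of shared ERVL models at least 2-fold higher in horse ranged with the filter and the scale. They fell from 46 to 19 of 20 with at least 10 reads in either species, to 4 of 4 with at least 10 in both, where 94% and 90.6% of all elements were called, and to 28 of 58 with a pseudocount of 10 TPM, where the background was 61.2%. The fewer models tested account for the first 2. The log2 ratio of summed TPM was 2.36, and it was 1.43 as shares of element reads and 1.94 over the 4 models with at least 10 reads in both. Going from TPM to shares moved the median log2 ratio of all elements from 2.60 to 1.76 and that of ERVL models from 2.40 to 1.60. On that scale the models higher in dog rose from 2 to 9 of 58, LTR40b (-0.16) and MER21B (-0.67) among them. The most dog reads of any of the 9 was 7.18, for LTR40b. The ERVL share was 5.64% in dog and 8.31% in horse of LTR reads, 0.126% and 0.926% of element TPM, and 0.7997% in horse of all reads without rRNA, so horse was higher by 1.47 to 7.37 times. The log2 ratio of mean LTR over mean internal level was 1.54 in dog and 1.60 in horse. It was 5.70 and 2.62 with only names holding int as internal, 0.95 in dog with CarERVR1 as internal, an alternative chosen after seeing the data, 2.71 and 2.59 with at least 3 reads in either species, and -1.89 and -1.49 in reads per model, where the length of the internal models sets the order. The posterior mean TPM was not used here. No paired analysis was possible because each species had 1 library.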

Other observations

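Among the 3 models filed as LTR/ERVL?, which the class rule left out, LTR55 had 0.987 reads at 4.93 TPM in horse and none in dog, and LTR87 and LTR89 had none in either testis. The LTR model ERV3-16A3_LTR, of 422 nt, had no read in horse, and its internal model ERV3-16A3_I, of 5226 nt, had 6.24. The interval of their ratio, LTR over internal, ran from 0 to 11.1 and includes equality.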
